A study of Mus musculus with 18 samples.

Results

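Neutrophils are the first leukocytes to reach an infarcted heart, and they carry preformed granule proteins and a large cytosolic store of calcium-binding alarmins. The genes described here were 8 such genes, S100a8, S100a9, Lcn2, Retnlg, Ngp, Slpi, Csf3r and Trem1, taken by symbol from a table of 24419 genes. S100a8, S100a9 and Lcn2 were chosen by their fold change at 6 h after infarction against sham, where they had been seen among the largest rises, so the 6 h values of the list describe that choice and were given no test. The table came from an acute myocardial infarction (AMI) time course in male C57BL/6 mice aged 8 weeks. Under pentobarbital anaesthesia, the proximal left anterior descending coronary artery was ligated, and infarcted left ventricle was taken after 10 min, 1 h, 6 h, 24 h or 72 h from 3 mice each. A further 3 mice, labelled as controls and called sham in the study's text, served as the reference, which makes 18 mice in 6 groups. Each mouse was 1 library of ventricular tissue, in which more cells of a type and more RNA per cell cannot be told apart.

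S100a8 and S100a9 pair as calprotectin, the alarmin that signals through the receptors encoded by Tlr4 and Ager. Lcn2 encodes lipocalin 2, which starves bacteria of iron and is made by neutrophil precursors and also by many tissue cells under cytokine stimulation. Ngp and Retnlg encode granule and secreted proteins of the neutrophil lineage, and Slpi encodes an inhibitor of neutrophil elastase. Csf3r is the receptor for the granulocyte growth factor Csf3, and Trem1 is an activating receptor of neutrophils and monocytes that signals through the adaptor Tyrobp. Mature neutrophils hold little transcript of the primary granule enzymes, which are made early in the bone marrow.

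Levels are given as FPKM, fragments per kilobase of transcript scaled to all mapped fragments, as deposited. Fold changes are differences of group means of log2(FPKM + 1), a scale that shrinks changes of genes near 0. A gene is called where the limma test gave a Benjamini-Hochberg adjusted p under 0.05 over all genes tested in that comparison. All 8 genes were among the 13333 that reached an FPKM of 1 in at least 1 mouse and were tested. Retnlg, Slpi, Csf3r, Trem1 and Ngp were below 1 FPKM in each sham and 10 min mouse and passed only through later mice, so that they had to be higher in some later group. Depth relative to the first sham mouse, read from the lowest FPKM, lay between 0.818 and 1.31 over the 18 libraries and had its highest group median, 1.29, at 72 h. In this tissue the 6 cardiomyocyte markers summed to between 50274 and 53745 FPKM in sham mice and between 18688 and 23304 at 72 h. The third 24 h mouse and the first 6 h mouse were the highest of their groups in all 8 genes, the latter only slightly for Lcn2. The 24 h tests are given with and without the third 24 h mouse.

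The neutrophil label was checked against 12 other granule genes and 10 neutrophil surface receptors. Among the granule genes, the primary granule enzymes Mpo, Elane, Prtn3 and Ctsg stayed below 1 FPKM in all 18 mice, with Mpo at 0.115 ± 0.0576 and Ctsg at 0.0405 ± 0.0351 FPKM at 72 h (SD, n = 3 mice) and at 0 in the 6 h mice. The secondary granule genes Ltf and Camp also stayed below 1 FPKM. The other 6 (Cd177, Mmp8, Mmp9, Chil1, Wfdc21 and Pglyrp1) had all 6 h mice above all sham mice, as did 18.6% of all tested genes. All of these but Pglyrp1 passed the filter only through later mice. The chemokine receptor gene Cxcr2 went from 0.124 ± 0.0742 FPKM in sham mice to 18.3 ± 19.6 at 6 h. Of the 10 receptors, 9 had all 6 h mice above all sham mice, beside the same 18.6% of genes. Most of the receptors, Cxcr2 included, also passed the filter only through mice at 6 h or later, which favoured such a rise. The tissue thus held transcripts of neutrophil surface receptors and of 6 of the 12 granule genes, while the primary granule genes, Ltf and Camp stayed below 1 FPKM. Ly6g was not analysed here.

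The 8 genes lie on 6 chromosomes (GRCm38, GENCODE M21). S100a8 (chr3:90668978-90670035, plus strand) and S100a9 (chr3:90692632-90695721, minus strand) are neighbours, 22596 bases apart with 0 annotated genes between them. Lcn2 lies at chr2:32384633-32388252 and Slpi at chr2:164354070-164389095, both on the minus strand. Retnlg is at chr16:48872621-48874496, Csf3r at chr4:126024550-126044440, Trem1 at chr17:48232768-48246924 and Ngp at chr9:110419747-110423012, all on the plus strand. Slpi shares exonic bases with Mir7678, and the library kit did not mark strand, so reads of that pair cannot be told apart. All 8 genes were matched to RefSeq promoter sequences (GRCm38.p6), of which the 250 bases before the start were searched on both strands for 4 motifs.

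The promoters of the alarmin pair, of Ngp and of Csf3r are shown as far as they lie outside annotated exons, because these genes are compared over time below. Capitals mark the motif match named after each sequence. For Lcn2 only the stretch around 1 match is shown, since its window, counted from the RefSeq start, lies within the longer annotated gene and has 0 bases upstream of all annotated exons.
S100a8 promoter (chr3:90668821-90668977, plus strand; PU.1): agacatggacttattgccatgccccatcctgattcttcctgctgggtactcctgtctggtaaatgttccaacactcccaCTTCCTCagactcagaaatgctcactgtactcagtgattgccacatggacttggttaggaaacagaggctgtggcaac
S100a9 promoter (chr3:90695722-90695971, minus strand; C/EBP): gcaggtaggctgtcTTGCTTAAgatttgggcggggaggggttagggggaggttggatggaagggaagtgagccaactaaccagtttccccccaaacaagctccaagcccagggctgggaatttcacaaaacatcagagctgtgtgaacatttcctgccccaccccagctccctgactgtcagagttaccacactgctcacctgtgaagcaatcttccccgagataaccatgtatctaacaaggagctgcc
Ngp promoter (chr9:110419558-110419746, plus strand; C/EBP): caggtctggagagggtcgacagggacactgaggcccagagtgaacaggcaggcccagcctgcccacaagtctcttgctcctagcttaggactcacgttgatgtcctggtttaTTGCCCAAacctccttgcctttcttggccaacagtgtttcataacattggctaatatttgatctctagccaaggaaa
Csf3r promoter (chr4:126024409-126024549, plus strand; kappaB): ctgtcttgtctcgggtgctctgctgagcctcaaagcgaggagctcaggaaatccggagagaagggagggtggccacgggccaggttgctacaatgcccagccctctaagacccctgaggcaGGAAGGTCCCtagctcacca
Lcn2 promoter stretch (chr2:32387822-32387851, minus strand; kappaB): ggtaaaggatGGACTACCCCgcccaacagg

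The C/EBP letters TTGCNNAA were found in 5 of the 8 windows (S100a9, Lcn2, Retnlg, Slpi and Ngp), against 9.57% of 32536 promoters. C/EBP proteins are transcription factors of granulocyte development and of the acute phase response. The PU.1 letters GAGGAAG were found in 3 windows (S100a8, Lcn2 and Csf3r), against 10.7% of promoters. The kappaB letters GGGNNNNNCC occurred in 2 windows (Lcn2 and Csf3r), below the 46% of all promoters, and the STAT letters TTCNNNGAA in that of Trem1 alone, against 7.04%. The Lcn2 window holds a match for 3 of the 4 motifs. These matches are letters in a window and say nothing on binding.

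The alarmin pair was low in sham hearts. S100a9 had 2.62, 4.02 and 1.53 FPKM in the 3 sham mice, then 17.5, 6.35 and 3.96 at 10 min and 23.7, 12.1 and 15.1 at 1 h. At 6 h its levels were 768, 86.5 and 292 FPKM, at 24 h 156, 28.9 and 721, and at 72 h 32.9, 38.5 and 38.0. Every 1 h mouse lay above every sham mouse, and the 6 h and 24 h groups overlapped widely.

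S100a8 had 0.340, 0.550 and 0.375 FPKM in sham mice, 4.62, 1.21 and 0.923 at 10 min, and 4.06, 3.25 and 3.16 at 1 h. It reached 167, 19.2 and 66.7 FPKM at 6 h and 35.8, 7.59 and 161 at 24 h, and had 7.37, 9.82 and 9.37 at 72 h. The order of mice within the 6 h and 24 h groups was that of S100a9. At 10 min, neither gene was called (for S100a8, 1.02 on the log2 scale with an SE of 0.36 and an adjusted p = 0.264). At 1 h both were called, S100a8 by 1.66 (SE 0.10, adjusted p = 0.000224) and S100a9 by 2.28 (SE 0.29, adjusted p = 0.0151). S100a9 lost the call without the first sham mouse (adjusted p = 0.0732) and without the filter on low values (adjusted p = 0.0648), and both lost it with a single estimate of spread over all 18 mice (adjusted p = 0.940 for S100a8 and 0.778 for S100a9). At 24 h the log2 fold change against sham was 4.71 for S100a8 (SE 0.93, adjusted p = 0.0116) and 5.39 for S100a9 (SE 1.03, adjusted p = 0.0105). Without the third 24 h mouse these were 3.65 (adjusted p = 0.00356) and 4.26 (adjusted p = 0.00421). At 72 h both were still higher than in sham mice, by 2.79 (SE 0.12, adjusted p = 1.51e-07) and 3.38 (SE 0.21, adjusted p = 1.47e-06).

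Lcn2 had an even level at 6 h. Its sham levels were 4.81, 4.20 and 3.54 FPKM, which the 10 min mice overlapped (8.45, 4.73 and 3.72) and the 1 h mice lay just above (7.04, 5.58 and 5.04). At 6 h all 3 mice stood at nearly the same value, 264, 255 and 262 FPKM, although the same mice ranged from 86.5 to 768 FPKM in S100a9. At 24 h Lcn2 had 214, 121 and 456 FPKM and at 72 h 14.7, 13.7 and 10.9. Against sham, Lcn2 rose by 5.47 in the 24 h mice (SE 0.43, adjusted p = 0.00131) and by 1.44 in the 72 h mice (SE 0.13, adjusted p = 1.09e-05), and was not called in the 1 h mice (0.41, adjusted p = 0.302). Without the third 24 h mouse its 24 h change was 4.98 (adjusted p = 8.69e-05).

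**Figure D1:**
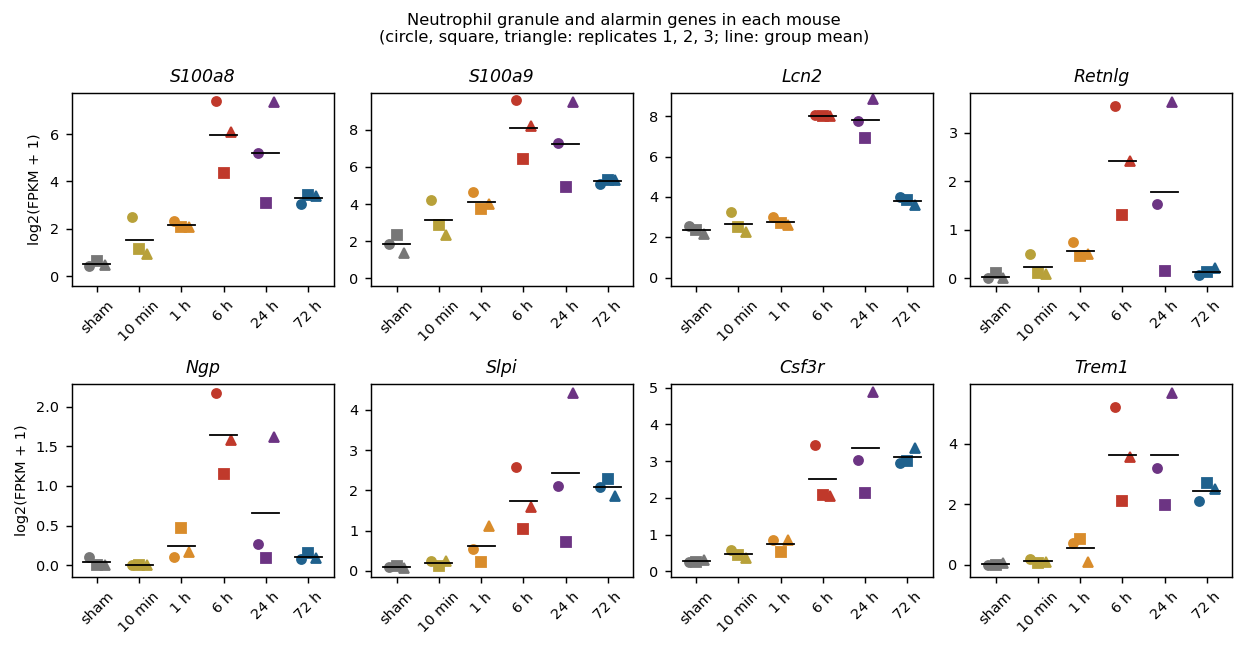
Level of each gene as log2(FPKM + 1) in each of the 18 mice, by group, with circles, squares and triangles for replicates 1, 2 and 3 and a line at the group mean. The 3 Lcn2 points at 6 h coincide (255 to 264 FPKM), whereas S100a9 spans 86.5 to 768 FPKM in the same mice, and Retnlg and Ngp return to near 0 at 72 h.

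Among the granule and secreted proteins, Retnlg and Ngp at 72 h overlapped with sham, and Slpi did not. Retnlg, a resistin-like secreted protein, was listed at 0, 0.0755 and 0 FPKM in sham mice and had 0.681, 0.371 and 0.412 at 1 h. It had 10.7, 1.49 and 4.34 FPKM at 6 h. The 24 h mice had 1.90, 0.118 and 11.5 FPKM, and the 72 h mice 0.0442, 0.0893 and 0.165. Each 1 h mouse lay above the sham mice, yet the change was not called (0.53, SE 0.09, adjusted p = 0.0587), nor was it at 24 h (1.75, SE 0.77, adjusted p = 0.111) or 72 h (0.10, SE 0.09, adjusted p = 0.340). With a pseudocount of 0.1 Retnlg was called at 1 h (2.25, adjusted p = 0.0276) and at 24 h (3.83, adjusted p = 0.0478), and the 24 h call was also made with all 18 mice in one fit (adjusted p = 0.0273). Its 24 h change was 0.81 without the third 24 h mouse (adjusted p = 0.120) and 2.56 without the second (adjusted p = 0.0267).

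Ngp was listed at 0 in 2 sham mice and in all 10 min mice, and had 0.0713, 0.383 and 0.118 FPKM at 1 h. At 6 h it had 3.53, 1.22 and 1.999 FPKM, its only group with every mouse above 1. It had 0.198, 0.0598 and 2.08 FPKM at 24 h and 0.0571, 0.113 and 0.0598 at 72 h. No tested comparison called Ngp (24 h, 0.62, SE 0.38, adjusted p = 0.222 and 72 h, 0.07, SE 0.09, adjusted p = 0.473). Without the third 24 h mouse its 24 h change was 0.14 (adjusted p = 0.321).

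Slpi had 0.0639, 0.0797 and 0.0561 FPKM in sham mice and 0.461, 0.168 and 1.15 at 1 h. Its levels were 4.997, 1.06 and 1.999 FPKM at 6 h. The 24 h mice had 3.31, 0.652 and 20.4 FPKM, and the 72 h mice 3.24, 3.90 and 2.62. The 72 h level lay within the range of 6 h and was called against sham (1.98, SE 0.12, adjusted p = 9.97e-07). At 24 h Slpi missed the threshold (2.33, SE 0.82, adjusted p = 0.0604), and passed it without the third 24 h mouse (1.32, adjusted p = 0.0296) or without the second (3.17, adjusted p = 0.0202). It also passed with a pseudocount of 0.1 (4.49, adjusted p = 0.0157) and with all 18 mice in one fit (adjusted p = 0.00532).

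Both receptors were above sham in every mouse from 6 h on. Csf3r had 0.204, 0.189 and 0.240 FPKM in sham mice, 0.495, 0.375 and 0.285 at 10 min, and 0.822, 0.441 and 0.801 at 1 h. It had 9.88, 3.27 and 3.11 FPKM at 6 h. The 24 h mice had 7.22, 3.43 and 28.3 FPKM, and the 72 h mice 6.69, 7.07 and 9.27. Its 3 latest groups overlapped. Csf3r was called at 24 h (3.08, SE 0.61, adjusted p = 0.0119) and 72 h (2.83, SE 0.12, adjusted p = 1.41e-07), and not at 1 h (0.47, SE 0.10, adjusted p = 0.126). Without the third 24 h mouse its 24 h change was 2.32 (adjusted p = 0.00111). Its 1 h change gained a call (0.58, adjusted p = 0.0253) when mouse 2 of that group was left out.

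Trem1 was listed at 0 in 2 sham mice and at 0.0540 FPKM in the third. It had 0.633, 0.814 and 0.0683 FPKM at 1 h. The 6 h mice had 36.8, 3.35 and 10.7 FPKM, the 24 h mice 8.19, 2.91 and 51.0, and the 72 h mice 3.30, 5.49 and 4.64. It was called at 24 h (3.597, SE 0.83, adjusted p = 0.0179) and 72 h (2.41, SE 0.14, adjusted p = 1.10e-06). The 24 h call was lost when any 1 of the 3 sham mice was left out (adjusted p from 0.0573 to 0.0647) and kept without the third 24 h mouse (2.56, adjusted p = 0.00212). At 1 h Trem1 was not called (0.53, adjusted p = 0.318) and, of the alternatives, passed only without the third 1 h mouse (0.76, adjusted p = 0.00982).

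The counts of called genes are read against the share of all tested genes that were called in the same direction. At 10 min limma called 0 of the 8 genes, with 3 (S100a8, S100a9 and Csf3r) at an unadjusted p under 0.05, against 0.248% of all genes called higher and 14.7% at that unadjusted p in either direction. At 10 min 3 of 8 (S100a8, Slpi and Csf3r) had all mice above all sham mice, against 12.2% of genes. At 1 h 2 of 8 were called higher, against 0.669% of genes, and 7 of 8 had all 3 mice above all sham mice, against 7.41%. At 6 h all 8 had no overlap with sham, beside 18.6% of genes without overlap and 11.6% called higher. S100a9, Lcn2 and S100a8 took places 2, 3 and 4 of all genes by fold change at 6 h (6.24, 5.66 and 5.43), and Trem1, Retnlg, Csf3r, Slpi and Ngp places 40, 98, 114, 212 and 224 (3.61, 2.39, 2.25, 1.64 and 1.60). These are values of the contrast that chose the first 3. At 24 h 5 of 8 were called higher, against 26.2% of genes, and 7 of 8 had no overlap with sham, against 39.3%. At 72 h 6 of 8 were called, against 53.1%, and the same 6 had no overlap, against 55.1%, both near the background. The median log2 fold change of the 8 genes was 0.20, 0.53, 3.004, 3.34 and 2.20 in the order of time, and that of all tested genes 0.02, -0.02, -0.08, 0.13 and 0.29. The median over all genes at 72 h moved from 0.29 to 0.04 with median-of-ratios scaling and to -0.12 with quantile normalization, and all 6 genes kept their 72 h calls. All 5 comparisons share the 3 sham mice, which also served in the choice of the genes.

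**Figure D2:**
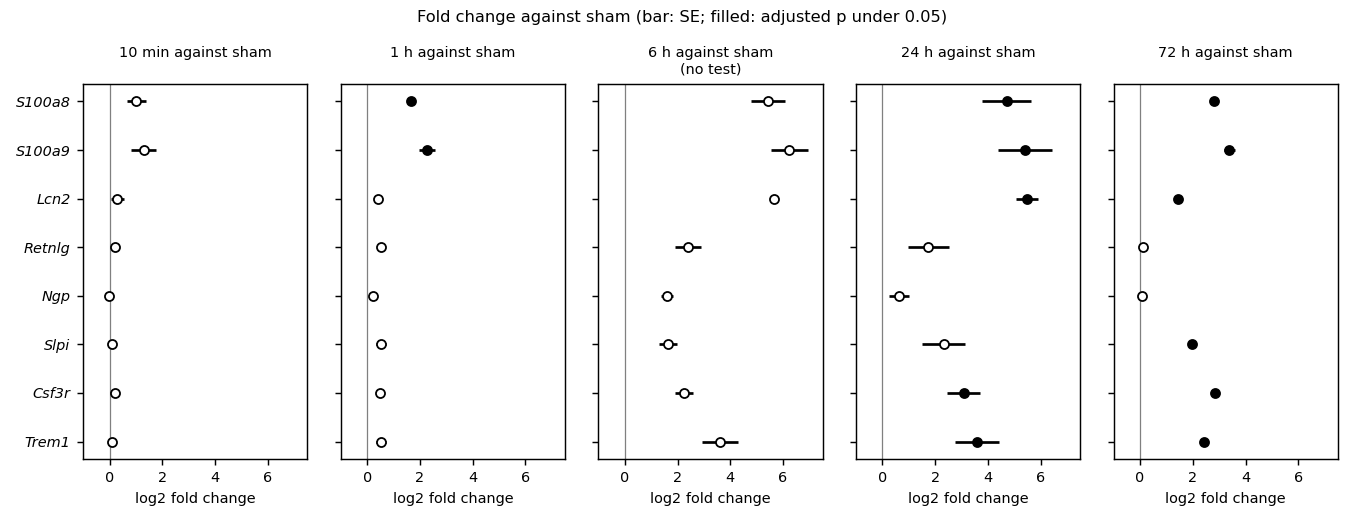
Log2 fold change of each gene against sham, on the log2(FPKM + 1) scale, at 5 times after ligation, with bars for the standard error and filled symbols for an adjusted p under 0.05. No symbol is filled for 10 min, 2 for 1 h, 5 for 24 h and 6 for 72 h, and the 6 h panel carries no test.

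Further comparisons used no sham and no 6 h mouse, whose values chose S100a8, S100a9 and Lcn2. They were not free of all choice. Retnlg, Csf3r, Trem1 and Ngp were below 1 FPKM in every 1 h mouse and passed the filter only through later mice, those at 24 h among them. A rise from 1 h to 24 h was thus favoured for these genes, and the whole list was chosen with earlier results known. From 1 h to 24 h, 5 genes were called higher, against 25.9% of all tested genes, and the same 5 had all mice higher, against 39.1%. The largest change was that of Lcn2 (5.07, SE 0.43, adjusted p = 0.00137). The others were Trem1 (3.07, SE 0.84, adjusted p = 0.0296), S100a9 (3.11, SE 1.01, adjusted p = 0.0489), S100a8 (3.05, SE 0.92, adjusted p = 0.0391) and Csf3r (2.61, SE 0.61, adjusted p = 0.0185). When any 1 of the 3 mice at 1 h was left out, only Lcn2 stayed called, with adjusted p from 0.0558 to 0.137 for the other 4. Without the third 24 h mouse, S100a9 was not called (1.98, adjusted p = 0.0537), and S100a8 (1.99, adjusted p = 0.0300), Lcn2 (4.57, adjusted p = 0.000129), Trem1 (2.03, adjusted p = 0.00881) and Csf3r (1.85, adjusted p = 0.00322) were. Without the first 24 h mouse, S100a8 (adjusted p = 0.0776) and S100a9 (adjusted p = 0.0971) were not called. Without the second, Retnlg (2.02, adjusted p = 0.0487) and Slpi (2.64, adjusted p = 0.0374) were added. Without the filter on low values 2 of the 8 genes were called, Lcn2 and Csf3r, and with quantile normalization 3, as S100a8 (adjusted p = 0.0526) and S100a9 (adjusted p = 0.0616) fell out.

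From 24 h to 72 h, 1 of the 8 genes was called lower, against 13.5% of all tested genes. It was Lcn2, which fell by 4.03 on the log2 scale (SE 0.42, adjusted p = 0.000387), from 264 ± 173 to 13.1 ± 1.95 FPKM. Its 72 h mice all lay below its 24 h mice, as did those of 19.1% of genes. S100a8 (-1.92, SE 0.91, adjusted p = 0.127), S100a9 (-2.01, SE 0.98, adjusted p = 0.139) and Retnlg (-1.64, SE 0.75, adjusted p = 0.117) did not pass the test over the wide spread at 24 h. Leaving out the second 24 h mouse, the lowest of its group, brought all 3 past it, with changes of -2.98 (adjusted p = 0.00874), -3.17 (adjusted p = 0.00749) and -2.45 (adjusted p = 0.0161). Trem1 (-1.19), Ngp (-0.55), Slpi (-0.34) and Csf3r (-0.25) were not called. Without the third 24 h mouse the sign turned for Slpi (0.66) and Csf3r (0.51).

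The order of the group means placed 6 h first for S100a8, S100a9, Retnlg and Ngp, and 24 h first for Lcn2, Slpi, Csf3r and Trem1. For all 8 genes the first and second groups in that order overlapped, so the time of the peak was not resolved. S100a8, S100a9, Lcn2 and Trem1 had 72 h in place 3, and for each of them no 72 h mouse overlapped with the 1 h mice below. Slpi and Csf3r had 72 h in place 2, with a mean of 7.67 ± 1.39 FPKM for Csf3r against 12.98 ± 13.4 at 24 h and 5.42 ± 3.86 at 6 h. Retnlg at 72 h (0.0997 ± 0.0613 FPKM) lay below its 1 h mean (0.488 ± 0.168).

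At 6 h and 24 h, mice of a group differed more in these genes than in most others. At 6 h the highest S100a9 level was 8.88 times the lowest, a spread above that of 99.4% of the tested genes with values in all 3 mice, whose median was 1.31 times. The same measure was 11.0 for Trem1, 8.68 for S100a8 and 7.20 for Retnlg. Lcn2 was the exception, with 1.03, and 98.8% of genes had as wide a spread or a wider one. The first 6 h mouse was the highest for all 8 genes. The third came next and the second was lowest in 7 genes (all but Csf3r), an order that 20.3% of all tested genes had.

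At 24 h the third mouse was highest and the second lowest in all 8 genes, an order that 16.3% of tested genes had. The highest S100a9 level was 25.0 times the lowest, that of Retnlg 97.8 times, that of Slpi 31.4 times and that of Lcn2 3.75 times, against a median of 1.36 over all genes. At 72 h the highest level was 1.17 times the lowest for S100a9, below the median of 1.19 over all genes, and the other 7 lay above that median. Retnlg, at 3.74 times, and Ngp, at 1.97, spread most, both at levels near 0, followed by Trem1 (1.66), Slpi (1.49), Csf3r (1.39), Lcn2 (1.35) and S100a8 (1.33).

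**Figure D3:**
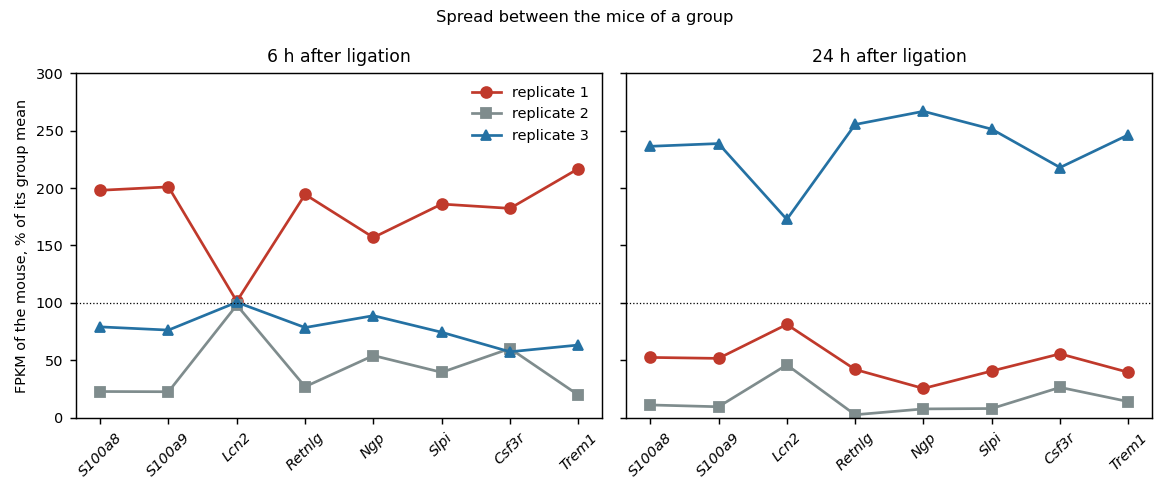
FPKM of each gene in each mouse as a percentage of its group mean, at 6 h and 24 h after ligation, with 1 line per mouse and a dotted line at the mean. At 6 h the first mouse has 157% to 217% of the mean in 7 genes, and the Lcn2 points lie between 98.1% and 101%. At 24 h the third mouse has 173% to 267% in all 8.

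Lists of other cells were read beside this order. At 6 h the summed FPKM of the 6 monocyte markers ran from 14.5 to 42.3 in the same order of mice, that of the pan-leukocyte genes from 78.5 to 265 and that of the 4 neutrophil-attracting chemokines from 62.6 to 234. At 24 h the monocyte markers ran from 46.9 to 235 and the chemokines from 21.1 to 411, again in the order of the 8 genes. The pan-leukocyte genes had another order at 24 h, with 322, 347 and 742 FPKM in mice 1, 2 and 3. Macrophage markers also departed from it, with the highest sum (272 FPKM) in the third 6 h mouse and 372, 452 and 380 FPKM in the 24 h mice. Cardiomyocyte markers had the opposite order in both groups, from 41352 to 51390 FPKM at 6 h and from 32076 to 40890 at 24 h. The erythroid genes were highest in the second 6 h mouse (6366 against 3029 and 3097 FPKM). The part of these in the spread was not tested.

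Ratios within a mouse separate the genes from the overall level of that mouse. The ratio of S100a9 to S100a8 was nearly constant, at 4.37 to 4.60 in the 6 h mice, 3.81 to 4.47 at 24 h and 3.92 to 4.47 at 72 h, while the level of S100a9 differed up to 25.0 times. In sham mice, where S100a8 was below 1 FPKM, it ran from 4.08 to 7.69. Trem1 to S100a9 was also narrow at 6 h, from 0.0368 to 0.0479, as was Retnlg to S100a9, from 0.0140 to 0.0173. Lcn2 to S100a9, in contrast, ran from 0.343 to 2.95 at 6 h and from 0.632 to 4.20 at 24 h.

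Some proportions between the genes at 72 h were unlike those at 6 h. Csf3r to S100a9 was 0.0107 to 0.0377 at 6 h, 0.0392 to 0.119 at 24 h and 0.183 to 0.244 at 72 h. Csf3r to Retnlg went from 0.717 to 2.19 at 6 h to between 56.0 and 151 at 72 h. Of the summed FPKM of the 8 genes, Csf3r held 0.715% ± 0.205 at 6 h and 10.4% ± 1.76 at 72 h. Lcn2 held 43.4% ± 24.0 and 17.8% ± 3.51, with overlap between the groups (20.9% to 68.7% and 14.6% to 21.6%). The shares of S100a9 (43.2% ± 18.8 and 49.3% ± 1.24) and S100a8 (9.59% ± 4.07 and 11.9% ± 0.985) overlapped as well. Between 24 h and 72 h, 7 ratios were compared by a two-sided exact permutation test on log2 ratios, for which 3 mice against 3 cannot give a p below 0.1. Lcn2 to S100a9 changed to 0.232 of its 24 h value, Slpi to S100a9 to 3.70 times and Csf3r to S100a9 to 3.48 times, each without overlap between the groups (exact p = 0.1, adjusted p = 0.233 over 7 ratios). Trem1 to S100a9 and Retnlg to S100a9 overlapped (exact p = 0.2, adjusted p = 0.28). S100a9 to S100a8 and Ngp to S100a9 had ratios of 0.986 and 1.02 between the times (exact p = 0.9, adjusted p = 0.9).

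**Figure D4:**
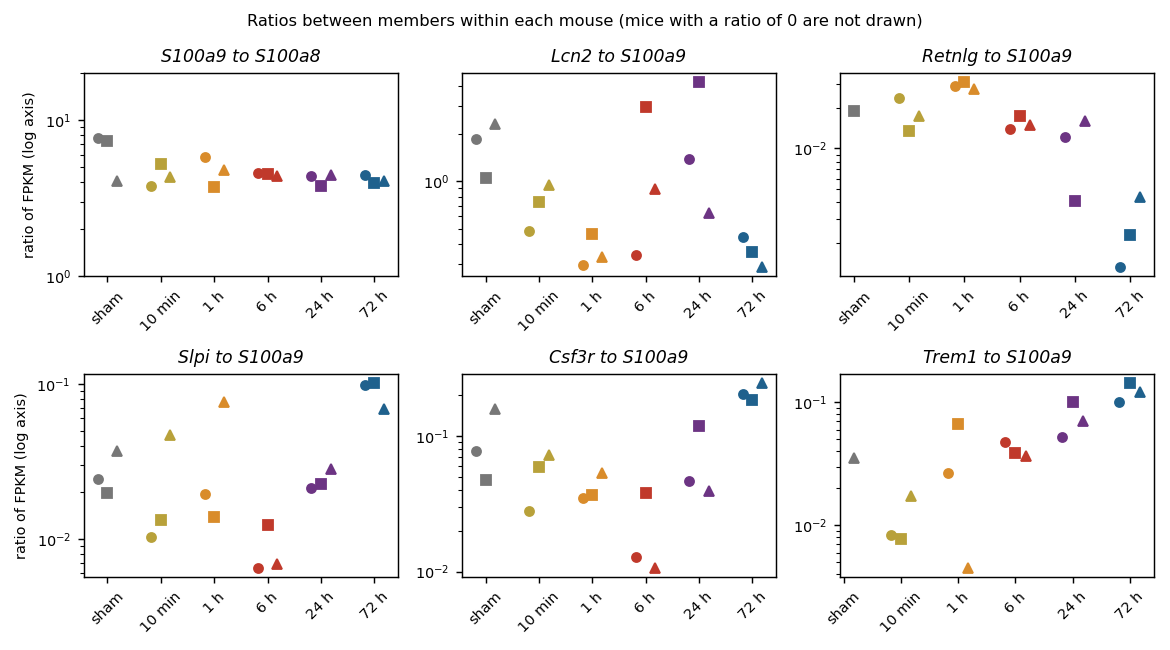
Ratios of FPKM between genes within each mouse, on a log axis, by group, with mice at a ratio of 0 left out. S100a9 to S100a8 stays between 3.81 and 4.60 from 6 h to 72 h, Lcn2 to S100a9 ranges from 0.343 to 2.95 at 6 h, and Csf3r and Slpi to S100a9 are highest at 72 h.

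Other neutrophil genes were above sham at 6 h. Of the 6 tested granule genes, all 6 were called higher at 6 h, 3 at 24 h (Mmp8, Mmp9 and Pglyrp1) and 5 at 72 h (all but Wfdc21). Of all tested genes, 11.6%, 26.2% and 53.1% were called higher at these times. The median log2 fold change of the 6 granule genes was 1.53, 1.56 and 0.87. Of these granule genes, Cd177, Mmp8, Mmp9, Chil1 and Wfdc21 were below 1 FPKM in every sham, 10 min and 1 h mouse and entered the test only through later mice. The 6 granule genes that stayed low were not tested, so the count over the tested genes does not speak for the list. The same holds for most of the receptors and neutrophil-rich genes below. Mmp9, a matrix protease, had 0.242 ± 0.0512 FPKM in sham mice, 13.4 ± 15.5 at 24 h (2.94, adjusted p = 0.0195) and 6.94 ± 1.72 at 72 h (2.65, adjusted p = 7.34e-07). Mmp8, the neutrophil collagenase, rose by 1.86 at 6 h (adjusted p = 0.00715). Cd177, a neutrophil surface and granule protein, rose by 2.08 at 6 h (adjusted p = 0.0239) and had 0.675 ± 0.214 FPKM at 72 h against 4.48 ± 4.75 at 6 h. Wfdc21, Chil1 and Pglyrp1 rose by 1.2, 1.05 and 1.63 at 6 h (adjusted p = 0.0182, 0.0228 and 0.0101).

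Of the 10 surface receptors, 8 were called higher at 6 h (all but Ptafr and Clec5a), 6 at 24 h and 10 at 72 h. The shares of all tested genes called higher were 11.6%, 26.2% and 53.1%. Cxcr2, the receptor for the Cxcl chemokines, rose by 3.604 at 6 h (adjusted p = 0.00707), 3.33 at 24 h (adjusted p = 0.0196) and 1.90 at 72 h (adjusted p = 1.33e-06). The C-type lectin receptor Clec4d had 7.17 ± 5.39 FPKM at 6 h and 17.6 ± 3.09 at 72 h, where its change against sham was 4.10 (adjusted p = 2.82e-08). The formyl peptide receptors Fpr1 and Fpr2 rose by 1.59 and 1.84 at 6 h (adjusted p = 0.0317 and 0.0126), and Il1r2, Ltb4r1 and Clec4e by 1.59, 0.53 and 1.73. Ptafr, the receptor of platelet-activating factor, rose from 24 h to 72 h by 1.76 (adjusted p = 0.00998), and Clec5a was first called at 24 h (2.01, adjusted p = 0.0269). Of 7 tested neutrophil-rich genes, 4 were called higher at 6 h, against 11.6% of all tested genes. Of these 4, Hdc, the histamine-forming enzyme, went from 2.09 ± 0.41 to 45.4 ± 36.4 FPKM (3.63, adjusted p = 0.00308). The others were Stfa2l1, Mcemp1 and Asprv1 (0.59, 0.81 and 1.33). Stfa2 had values in few mice, and Stfa3 and BC100530 stayed below 1 FPKM. Padi4, which citrullinates histones in neutrophils, rose by 2.09 at 72 h (adjusted p = 2.8e-07), and G0s2, a lipase inhibitor also abundant in heart, fell by 1.06 (adjusted p = 0.000271).

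Ligands and partners of the 8 genes rose at different times. Csf3, the ligand of Csf3r, was listed at 0 in sham mice and had 0.840 ± 0.734 FPKM at 6 h (0.81, adjusted p = 0.0440) and 0.00415 ± 0.00719 at 72 h. Csf3 reached 1 FPKM only in the 6 h group and entered the test only through it, which favoured a rise there. Tyrobp, the Trem1 adaptor, had 4.53 ± 0.727 FPKM in sham mice, 28.3 ± 16.2 at 24 h (2.28, adjusted p = 0.00592) and 99.6 ± 14.5 at 72 h (4.18, adjusted p = 2.82e-08). Tlr4 was called from 6 h (1.15, adjusted p = 0.0155) to 72 h (1.84, adjusted p = 1.55e-06). Ager stayed below 1 FPKM in every mouse. Slc22a17, a receptor for Lcn2, fell by 0.35 at 24 h (adjusted p = 0.0447) and rose by 0.82 at 72 h (adjusted p = 0.00118).

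Of 8 paralogs, 6 were tested, with 1 called higher for 6 h, 2 for 24 h and 4 for 72 h, against 11.6%, 26.2% and 53.1% of all tested genes. One paralog, Retnla, was called lower for both 24 h and 72 h. Trem2, a receptor of macrophages, went from 2.08 ± 0.740 to 186 ± 27.6 FPKM at 72 h (5.94, adjusted p = 3.17e-08), where Trem1 had 4.48 ± 1.10. Retnla, a relative of Retnlg, fell by 1.77 at 24 h (adjusted p = 0.00235). Treml2 and Treml4 rose by 1.56 and 1.82 at 72 h (adjusted p = 6.82e-07 and 5.35e-07). Both, like others of the 6 tested, were below 1 FPKM in every sham, 10 min and 1 h mouse. They entered the test only through later mice, which favoured a rise.

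Chemokines that attract neutrophils were among the genes called at 1 h. Cxcl1 and Cxcl2 rose at 1 h by 3.27 and 2.49 (adjusted p = 4.39e-06 and 8.93e-05), and all 4 chemokines, Cxcl3 and Cxcl5 included, were called higher at 6 h, 24 h and 72 h. Cxcl3 and Cxcl5 were below 1 FPKM in every sham, 10 min and 1 h mouse. They entered the test only through later mice, which favoured a rise. Cxcl1 had its highest mean at 6 h (55.7 ± 33.3 FPKM) and 5.20 ± 1.75 FPKM at 72 h. Of 11 tested acute phase and cytokine-induced genes, the number called higher was 6 for 1 h, 10 for 6 h, 8 for 24 h and 10 for 72 h. The shares of all tested genes called higher at these times were 0.669%, 11.6%, 26.2% and 53.1%. Some of the 11 genes likewise stayed below 1 FPKM up to 1 h and entered the test only through later mice. Cebpd and Cebpb, which encode C/EBP factors, rose at 1 h by 1.49 and 1.13 (adjusted p = 0.000332 and 0.0332), and at 6 h by 2.60 and 1.54 (adjusted p = 0.000475 and 0.0105). Steap4, a metalloreductase, rose at 6 h by 1.07 (adjusted p = 0.000853) and fell by 0.30 at 24 h (adjusted p = 0.0430), and C3 was called at 72 h (1.40, adjusted p = 0.000191).

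Genes with the most similar pattern were taken as the 3 with the highest Pearson r of log2(FPKM + 1) over the 18 mice, a description over libraries that share group and depth. Left out of this search were the 8 genes themselves, predicted genes (Gm and Rik symbols) and symbols turned into dates. Cxcr2 was nearest to S100a8 (r = 0.975), S100a9 (r = 0.961) and Trem1 (r = 0.986). Has1 and Amica1 came next for both alarmins, and Amica1 and Il1b for Trem1. Lcn2 had other neighbours, Mt2 (r = 0.972), Zfp697 (r = 0.968) and Syt12 (r = 0.966). Mt2, a metallothionein gene, had 3812 ± 286 FPKM at 6 h and Syt12 9.17 ± 0.722, narrow groups like that of Lcn2. Zfp697 spread more at 6 h, with 16.4 ± 4.20 FPKM. Retnlg was nearest to Wfdc21 (r = 0.972), then to Chd7 and Adm, and Ngp to Csf3 (r = 0.955), Pde4b and Akap12. Csf3r was nearest to Slfn1 (r = 0.984), Cd300lf (r = 0.984) and Il1rn (r = 0.983), of which Cd300lf had 15.5 ± 14.5 FPKM at 6 h and 15.9 ± 0.956 at 72 h. Slpi was nearest to Ms4a8a (r = 0.966), Mir142b and Inhba. Among the 8 themselves, r ran from 0.568 for Csf3r with Ngp to 0.995 for S100a8 with S100a9.

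The late groups held many more transcripts of other leukocytes. All 6 monocyte markers were called higher at 6 h, 24 h and 72 h, against 11.6%, 26.2% and 53.1% of all tested genes. Most of them, Chil3, Ccr2, Ms4a4c and Plac8 included, were below 1 FPKM in every sham, 10 min and 1 h mouse. These entered the test only through later mice, so a rise was favoured. The sum of the 6 monocyte markers was 2.37 to 3.11 FPKM in sham mice and 118 to 141 at 72 h. Chil3 and Ccr2 led that list, with 34.4 ± 7.04 and 38.4 ± 5.81 FPKM at 72 h. Macrophage markers summed to 229 to 272 FPKM at 6 h, within or near the sham range of 242 to 283, and to 2240 to 2863 at 72 h. At 72 h 7 of 8 were called higher, against 53.1% of all tested genes. C1qa alone had 769 ± 113 FPKM at 72 h. Of the 5 platelet genes, Pf4 made up most of the sum and went from 16.9 ± 2.25 FPKM in sham mice to 189 ± 10.2 at 72 h. In the same groups Ppbp had 0.793 ± 0.355 and 8.25 ± 3.19 FPKM, and Gp1bb 0.238 ± 0.0689 and 3.93 ± 2.46. Gp1bb too entered the test only through later mice. Itga2b had 0.449 ± 0.0353 and 0.738 ± 0.0417 FPKM. At 72 h 4 of the 5 were called higher, against 53.1% of all tested genes, and 4 had no overlap with sham, against 55.1%. Of the 8 lymphocyte markers, 7 stayed below 1 FPKM in every mouse. The 8 neutrophil genes went from 371 to 1265 FPKM at 6 h to 68.4 to 78.7 at 72 h. Mesothelial markers, of cells that also make Slpi, summed to 7.19 to 17.4 FPKM in sham mice and 24.2 to 76.6 at 72 h. Which cells carried Slpi, Csf3r and Trem1 at 72 h was not tested.

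**Figure D5:**
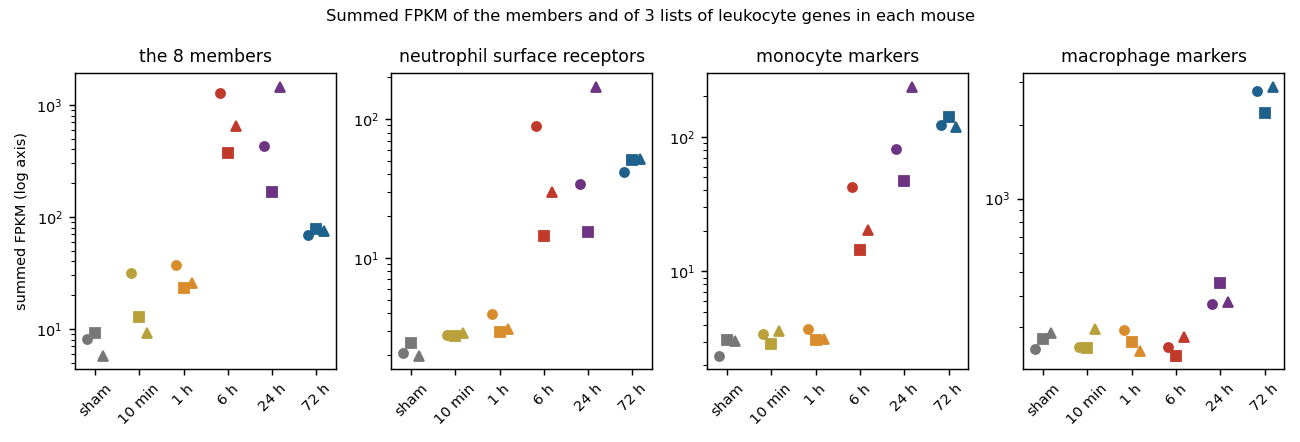
Summed FPKM of the 8 genes, of 10 neutrophil surface receptors, of 6 monocyte markers and of 8 macrophage markers in each mouse, on log axes, by group. The 8 genes are at 371 to 1265 FPKM at 6 h and 68.4 to 78.7 at 72 h, and the macrophage sum is at 229 to 272 and 2240 to 2863.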

How the data were processed

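RNA from 18 left ventricles was sequenced by the authors from poly(A) libraries whose kit did not mark strand. Trimming by the authors used cutadapt 1.18, mapping to mm10 used HISAT2 2.1.0, and the authors estimated FPKM per gene symbol with StringTie 1.3.4d, per the submitters' processing notes, and the deposited FPKM were used as they stand. Groups came from the sample titles. The headers of the columns for 1 h and for the second 6 h mouse are spelled unlike any title, and were read as the titles left over.

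Log2(FPKM + 1) was tested in R 4.3.3 with limma 3.58.1 (eBayes with a variance trend), 2 groups of 3 mice at a time, over the genes with at least 1 FPKM in at least 1 mouse, leaving out genes constant over the mice compared. Two-sided p-values were adjusted after Benjamini and Hochberg over all tested genes, and "called" means an adjusted p under 0.05. The labels do not say whether the mice of a group differ in more than the sample, so p-values measure the spread between the samples.

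The 8 genes and all gene lists were chosen with earlier results of these data known. The genes named are the 8, all of the neutrophil and partner lists except 1 receptor gene that is counted but not reported here by name, up to 4 of every other list with the highest mean FPKM, and the 3 genes most like each of the 8. Tables and ratios were made with Python 3.11.15, pandas 2.3.3, numpy 2.4.6 and scipy 1.17.1, and plots with matplotlib 3.10.9. The test was tried on simulated data with known changes. The table holds no counts, so no counting error is given, and relative depth came from FPKM up to 0.3. Alternatives tried were no filter, a pseudocount of 0.1, a filter on mean FPKM, 3 other scalings, all mice in one fit, no variance trend, a replicate block, and leaving out each mouse.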

Additional observations from a re-analysis of the deposited data

Results flagged for a closer look

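The following results come from groups that differed in their effect, by a limma test of the difference between times after ligation, on the log2(FPKM + 1) scale. From 1 h to 24 h the difference was 3.05 for S100a8 (adjusted p = 0.0391), 3.11 for S100a9 (adjusted p = 0.0489), 5.07 for Lcn2 (adjusted p = 0.00137), 2.61 for Csf3r (adjusted p = 0.0185) and 3.07 for Trem1 (adjusted p = 0.0296). Each had all 3 mice at 24 h above all 3 at 1 h, as did 39.1% of all tested genes. When any 1 of the 1 h mice was left out, only Lcn2 stayed called. From 24 h to 72 h the difference was -4.03 for Lcn2 (adjusted p = 0.000387), 1.76 for Ptafr (adjusted p = 0.00998), 1.12 for Padi4 (adjusted p = 0.0136) and -0.9995 for G0s2 (adjusted p = 0.000803). With 3 mice in each group, no test for a mouse far from its group was made.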

How the results depend on the processing

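The number of genes called at 1 h against sham, 2, was 1 without a filter, 0 with all 18 mice in one fit and 1 to 3 when 1 mouse was left out, the lowest without the first sham mouse. For 24 h it was 5, 7 with a pseudocount of 0.1 or with all mice in one fit (Retnlg and Slpi added), and 4 to 7 without 1 mouse, and for 72 h 6 throughout. From 1 h to 24 h it was 5, with 2 without a filter, 3 with quantile normalization and 1 to 7 without 1 mouse. From 24 h to 72 h 1 gene was called lower, 2 with all mice in one fit and 1 to 4 without 1 mouse. The median log2 fold change at 6 h, 3.004, was 5.54 with a pseudocount of 0.1 and 2.32 to 3.66 without 1 mouse. Signs turned for Retnlg (-0.084) and Ngp (-0.095) at 72 h with quantile normalization, and without the third 24 h mouse for Ngp from 1 h to 24 h (-0.070, and up to 0.70 without the second) and for Slpi (0.66, and down to -1.19 without the second) and Csf3r (0.51, and down to -0.85) from 24 h to 72 h. Mean levels moved by more than 1 SD with median-of-ratios scaling, to 290.0 FPKM for Lcn2 at 6 h and, at 72 h, to 7.38 for S100a8, 30.5 for S100a9 and 11.0 for Lcn2, and Lcn2 at 6 h became 254 FPKM with rescaling to the same sum. Of the 24 places held by the 3 genes most like each of the 8, 14 were kept with a pseudocount of 0.1. The causes were not tested. The correlation of same-numbered mice ran from -0.398 to 0.460 over 45 pairs, 9 of them over 0.1. All 3 pairs were over 0.1 for 10 min with 1 h (the lowest 0.111), groups not compared here, and in none of the comparisons made, so the numbers were not taken as pairs. With the replicate block, 6 genes were called at 24 h and 6 from 1 h to 24 h, Slpi being added (adjusted p = 0.0462 and 0.0407), and no other call changed. Without counts, values below 1 FPKM, as for Ngp and Retnlg in most groups, have a precision known only from the spread between mice.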
